A study of Mus musculus with 6 samples.

Results

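The intermediate filament and nuclear lamin genes of mouse induced pluripotent stem cells (iPSCs) were compared between cells with and without serum response factor (SRF). The 8 genes were chosen by name, with no threshold on their counts, and all 8 had an entry in the table, out of 24421 genes. They are the simple epithelial keratins Krt8, Krt18 and Krt19, the mesenchymal filament gene Vim, the lamin genes Lmna, Lmnb1 and Lmnb2, and Plec, which encodes the linker protein plectin. Bulk RNA was sequenced from 3 libraries of SRFΔ/Δ iPSCs (SRF KO) and 3 libraries of SRFf/f iPSCs (WT), which carry the conditional allele. Both groups were cultured with serum. The labels give neither the number of clones nor the use of feeder cells, and they do not say whether replicates were separate cultures. The p-values therefore measure the spread between these libraries, which may be technical.

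Intermediate filaments are rope-like polymers that give cells mechanical strength. Keratins are obligate pairs of a type II chain, such as Krt8, with a type I chain, such as Krt18 or Krt19, and the Krt8 and Krt18 pair is typical of simple epithelia, including trophectoderm and endoderm. Vimentin assembles on its own and is typical of mesenchymal cells. Lamins form the meshwork under the inner nuclear membrane: B-type lamins are made in nearly all cells, whereas lamins A and C, both products of Lmna, are low in pluripotent cells and higher in differentiated ones. Plectin ties filaments to actin, microtubules, adhesion sites and the nucleus. SRF drives many cytoskeletal genes through DNA elements called CArG boxes.

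The libraries held between 26321602 and 36680156 counts, and Srf in SRF KO was at 11.5% of its WT level. WT replicate 2 stood apart: its chi-square per degree of freedom against the other WT libraries was 12.9 and 15.6, against 3.80 for the remaining WT pair and 1.83 to 5.13 in SRF KO. Of 10 pluripotent cell markers, 5 passed an adjusted p under 0.05, against 42.4% of all genes tested. Of these 5, 1 was higher and 4 were lower in SRF KO. The median log2 fold change of the 10 markers was -0.16. Their summed level was 5400 to 5522 CPM (counts per 1000000, with libraries scaled by the trimmed mean of M values, TMM) in SRF KO against 6278 to 6757 CPM in WT. Nanog, Esrrb and Dppa5a fell by 0.79, 0.49 and 0.42 on the log2 scale, and Zfp42 rose by 0.17. The adjusted p by edgeR for Zfp42, the only marker counted as higher, was 0.0312. It lost its call without SRF KO replicate 1 (0.0903), SRF KO replicate 2 (0.122), WT replicate 1 (0.111) or WT replicate 3 (0.1). All 10 markers passed the filter on low counts. All 17 fibroblast markers and 13 of 14 endoderm markers passed it too, so passing the filter does not tell the cell type.

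Vim, Lmna and Plec rose in SRF KO, by factors of 1.76, 1.91 and 1.66. Krt18 fell to 79.6% and Lmnb1 to 90.2% of the WT level, while Krt8, Krt19 and Lmnb2 did not pass the threshold. In all, 5 of 8 genes passed an adjusted p under 0.05 in the quasi-likelihood test of edgeR, adjusted by Benjamini and Hochberg, against 42.4% of the 14778 genes tested. The 3 higher genes compare with 21.2% of genes tested, and the 2 lower ones with 21.3%. The values of 5 of the 8 genes did not overlap between the groups, which also held for 52.7% of genes tested, so that the counts alone set these genes little apart from the rest. The median log2 fold change was -0.01 over the 8 genes and -0.01 over all genes tested, and the median absolute value was 0.25 against 0.21. None of the 8 reached an absolute log2 fold change of 1 together with the adjusted p, which 7.29% of genes tested did.

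**Figure D1:**
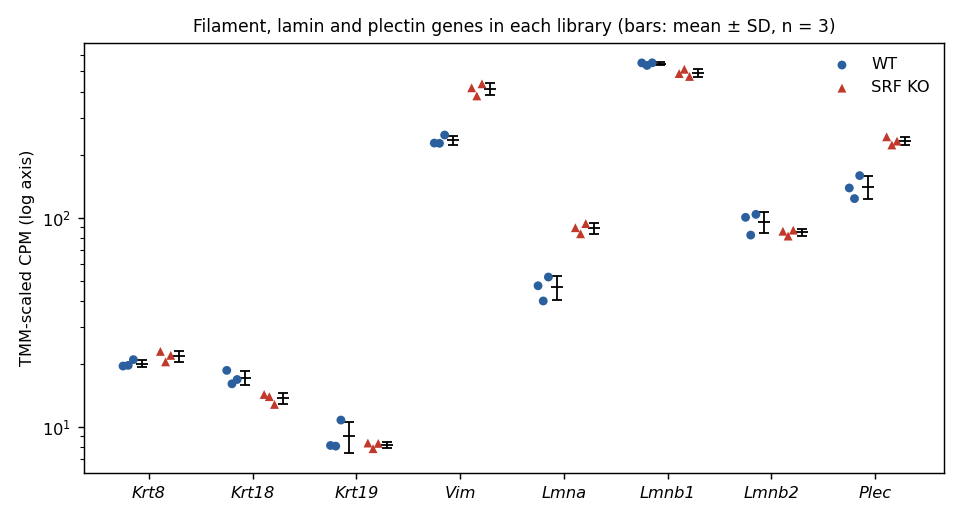
Level of each gene in each library, as TMM-scaled CPM on a log axis. Circles are WT libraries, triangles SRF KO libraries, and bars the mean and SD of 3 libraries. Triangles lie above circles for Vim, Lmna and Plec and below them for Krt18 and Lmnb1.

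The lamins were examined first, since lamins A and C differ in level between pluripotent and differentiated cells. Lmna had 89.5, 83.7 and 93.7 CPM in SRF KO replicates 1 to 3 and 47.2, 40.0 and 52.0 CPM in WT replicates 1 to 3. Every SRF KO library was thus above every WT library, and WT replicate 2 was the lowest. The mean was 89.0 ± 5.0 CPM in SRF KO against 46.4 ± 6.07 CPM in WT (SD, n = 3), or 0.94 higher on the log2 scale (SE 0.08; adjusted p by edgeR 4.84e-06). Its absolute fold change was at least as large as that of 91.6% of genes tested. Without WT replicate 2 the log2 fold change of Lmna was 0.85. The counts do not separate lamin A from lamin C, which arise from Lmna by alternative splicing.

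Lmnb1, the most abundant of the 3 lamin messages, moved slightly in the opposite direction. It had 488, 512 and 473 CPM in SRF KO against 549, 534 and 550 CPM in WT. The groups did not overlap, but the highest SRF KO library and the lowest WT library lay close together. The log2 fold change was -0.15 (SE 0.05; adjusted p by edgeR 0.0291). This call ended with total counts in place of TMM (adjusted p 0.073) and without SRF KO replicate 1, SRF KO replicate 3, WT replicate 1 or WT replicate 3 (0.119, 0.145, 0.0897 and 0.0629).

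Lmnb2, the other B-type lamin, had 86.1, 81.6 and 87.1 CPM in SRF KO against 100.3, 82.5 and 104 CPM in WT. The groups overlapped through WT replicate 2. The log2 fold change of -0.17 (SE 0.08) did not pass the threshold (adjusted p by edgeR 0.0964). Without WT replicate 2 it was -0.26 and passed (adjusted p 0.000171), and it also passed with the replicate number as a block (-0.17, adjusted p 0.0142).

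Because the messages differ in length, lamin levels were compared per kilobase of the longest coding transcript. In WT, Lmnb1 was at 192 ± 3.11, Lmnb2 at 27.1 ± 3.22 and Lmna at 14.7 ± 1.92 CPM per kilobase (SD, n = 3). In SRF KO the order of the lower pair was the reverse, with Lmna at 28.2 ± 1.58 and Lmnb2 at 24.1 ± 0.827, while Lmnb1 was again the highest of the lamins at 173 ± 6.92 CPM per kilobase. In neither group did the libraries of Lmna and Lmnb2 overlap on this scale. WT Lmna reached 16.5 at most and WT Lmnb2 was at least 23.4. SRF KO Lmna was at least 26.5 and SRF KO Lmnb2 at most 24.7. In CPM, the SRF KO libraries of Lmna (83.7 to 93.7) and Lmnb2 (81.6 to 87.1) overlapped. Their order in SRF KO thus depends on the transcript lengths used. The 3 lamins together held 225 ± 4.54 CPM per kilobase in SRF KO against 233 ± 8.17 in WT, values whose difference is close to the larger SD.

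Within that pool, the share of Lmna was 12.6%, 11.5% and 13.4% in SRF KO, against 6.33%, 5.65% and 6.89% in WT. Lmnb1 made up 76.8% ± 1.53 in SRF KO against 82.1% ± 1.59 in WT (SD, n = 3). The ratio of Lmna counts to the sum of Lmnb1 and Lmnb2 counts does not depend on library scaling. It was 0.156, 0.141 and 0.167 in SRF KO against 0.0727, 0.0648 and 0.0796 in WT, so that all SRF KO libraries lay above all WT libraries. The mean log2 difference was 1.10, or 2.14-fold, with SDs of 0.124 in SRF KO against 0.149 in WT on that scale. An exact two-sided permutation test over libraries gave p = 0.1, the smallest that 3 libraries against 3 allow, so it could not have passed 0.05 (adjusted over the 2 ratios tested, 0.1). The difference was 1.10 against Lmnb1 alone and 1.11 against Lmnb2 alone.

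**Figure D2:**
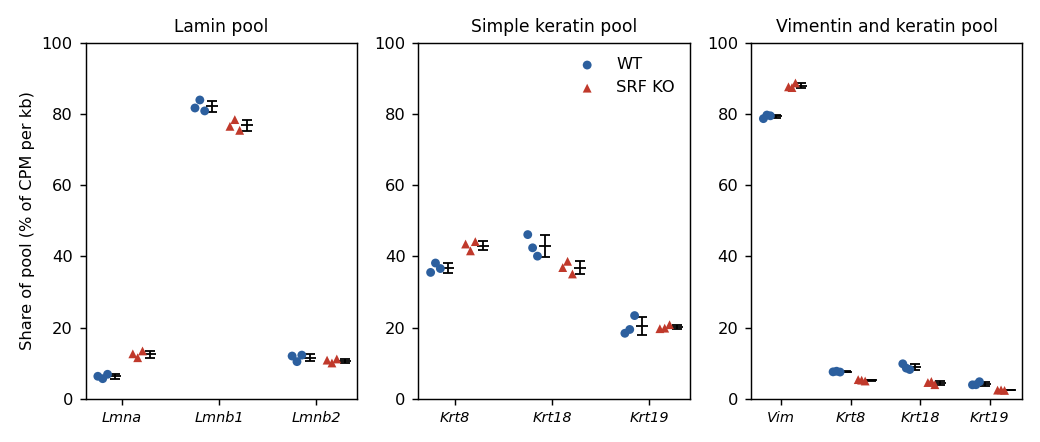
Share of each gene in the summed CPM per kilobase of its pool, in percent, by library: lamins, simple keratins, and vimentin with the simple keratins. Circles are WT, triangles SRF KO, bars the mean and SD of 3 libraries. Lmna takes 11.5% to 13.4% of the lamin pool in SRF KO against 5.65% to 6.89% in WT.

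Among the cytoplasmic filaments, Vim had 418, 382 and 436 CPM in SRF KO against 227, 227 and 248 CPM in WT. The lowest SRF KO library exceeded the highest WT library. Means were 412 ± 27.7 and 234 ± 12.3 CPM (SD, n = 3), with a log2 fold change of 0.82 (SE 0.06; adjusted p by edgeR 1.26e-06). This gene was at or above 89.3% of genes tested in absolute fold change.

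Krt8, Krt18 and Krt19 lay below Vim per kilobase in every library, and their fold changes were smaller in size. Krt8, the type II chain, had 22.9, 20.4 and 22.0 CPM in SRF KO against 19.5, 19.7 and 21.0 CPM in WT, and the groups overlapped. Its log2 fold change was 0.12 (SE 0.07; adjusted p by edgeR 0.209). Krt18, its usual type I partner, had 14.3, 13.9 and 12.8 CPM in SRF KO against 18.6, 16.1 and 16.8 CPM in WT, with every SRF KO library lower. Its log2 fold change was -0.33 (SE 0.08; adjusted p by edgeR 0.00719). Krt19, a further type I chain, had 8.36, 7.86 and 8.33 CPM in SRF KO against 8.15, 8.09 and 10.8 CPM in WT. Only WT replicate 3 stood out for Krt19, whose log2 fold change of -0.13 (SE 0.12; adjusted p by edgeR 0.39) was 0.01 without that library.

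The balance between the types among Krt8, Krt18 and Krt19 was compared within each library. Other keratins were left out, so it is not the balance of all keratins. Among those left out, type I Krt42 had 20.7 CPM in WT and 8.92 CPM in SRF KO, and type I Krt17 had 9.86 and 4.13 CPM. Type II Krt7 had 3.11 CPM in WT and 0.575 CPM in SRF KO. The ratio of Krt8 counts to the sum of Krt18 and Krt19 counts was 1.01, 0.938 and 1.04 in SRF KO against 0.730, 0.815 and 0.759 in WT, without overlap. The mean log2 difference was 0.38 (SDs 0.0774 and 0.0808), and 0.45 against Krt18 alone. The exact two-sided permutation p was again 0.1, the smallest possible with 3 against 3 (adjusted 0.1). Per kilobase, Krt18 lay above Krt8 in WT (11.9 ± 0.912 and 10.2 ± 0.401). In SRF KO, Krt18 lay below Krt8 (9.51 ± 0.540 and 11.1 ± 0.643, SD, n = 3). The genes did not overlap in either group on this scale. In CPM, Krt8 lay above Krt18 in every library, so the switch of order depends on the transcript lengths used. The pool of the 3 keratins was 25.8 ± 0.985 CPM per kilobase in SRF KO against 27.9 ± 1.46 in WT.

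Vim dominated the pool of Vim, Krt8, Krt18 and Krt19 in both groups. It took 87.6%, 87.4% and 88.7% of that pool per kilobase in SRF KO against 78.7%, 79.7% and 79.5% in WT, while Krt18 took 4.47% ± 0.459 and 8.89% ± 0.839 (SD, n = 3). Ordered by level per kilobase, WT had Lmnb1, Vim, Lmnb2, Lmna, Krt18, Krt8, Plec and Krt19. Of these neighbours, the libraries of Lmna and Krt18 overlapped, as did those of Krt8 and Plec. SRF KO had Vim at 188 ± 12.6 CPM per kilobase, then Lmnb1, Lmna, Lmnb2, Plec, Krt8, Krt18 and Krt19, and there only Vim and Lmnb1 overlapped.

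Plec had 243, 222 and 232 CPM in SRF KO against 139, 123 and 159 CPM in WT. All SRF KO libraries were higher, and WT replicate 2 was again the lowest. Means were 233 ± 10.5 and 140 ± 17.8 CPM (SD, n = 3), which is a log2 difference of 0.73 (SE 0.08; adjusted p by edgeR 2.29e-05). Plec has 13 coding transcripts with 12 different starts in GENCODE M21, which encode plectins that bind different structures, and gene counts do not show which of them rose. Its annotated span also overlaps Parp10 on the same strand.

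**Figure D3:**
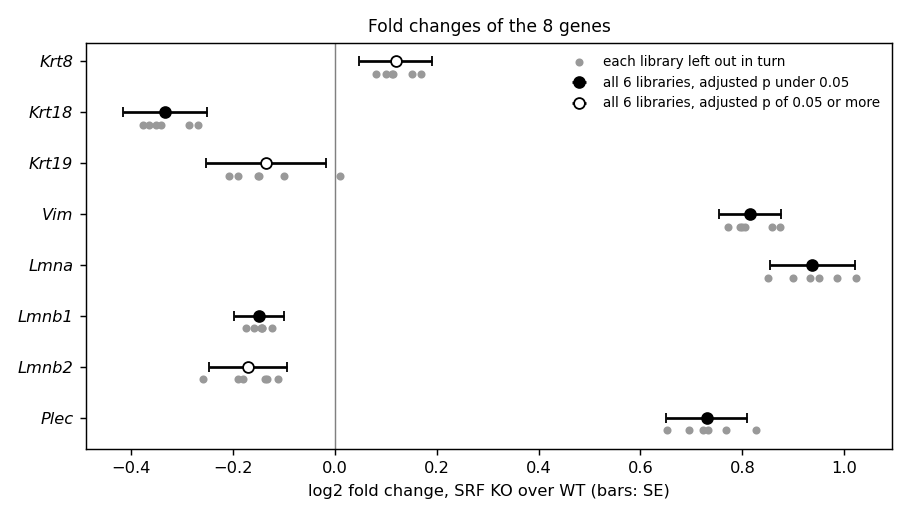
Log2 fold change of SRF KO over WT with its SE for each gene (filled: adjusted p under 0.05) and, in grey, the value with each library left out in turn. Vim, Lmna and Plec stay between 0.65 and 1.02, whereas Krt19 crosses 0.

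To see whether the start-proximal DNA holds known elements, 7 RefSeq windows (GRCm38.p6) of the 250 bases before a transcript start were searched on both strands, from 5 of the 8 genes: Vim, Lmna, Lmnb2, Krt8 and Krt18. The motifs were the CArG box, which SRF binds, the AP-1 motif TGANTCA, the GC box GGGCGG and the TATA motif TATAA. An exact CArG box was in none of the 7 windows and in 1.47% of 32851 windows of all genes, and TGANTCA was in none of the 7 and in 6.75% of all. GGGCGG was in 1 window each of Lmna and Lmnb2 (32.7% of all windows), and TATAA in those of Vim and Krt18 (22.8% of all). In the Vim window the forward and reverse matches of TATAA overlap by 4 bases. The stretches that hold the matches of the called genes Vim, Krt18 and Lmna are shown 5′ to 3′ on the strand of the gene, with matches in capitals. Lmna carries the reverse complement of the GC box. They lie at chr2:13574266-13574294, chr15:102028185-102028213 and chr3:88503387-88503602.
Vim: ttcctaacagtgTTATAAaagcagcgccc
Krt18: ctcccgcggcgaTATAAcaacaggtcgag
Lmna: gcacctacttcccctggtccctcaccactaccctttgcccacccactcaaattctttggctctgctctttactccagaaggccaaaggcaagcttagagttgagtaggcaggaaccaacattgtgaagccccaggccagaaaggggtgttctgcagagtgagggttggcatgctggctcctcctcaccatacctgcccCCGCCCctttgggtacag

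These matches are letters found in a short window, not measured binding, and elements farther from the start were not searched. Annotated starts differ: all 250 bases of the Vim window, 36 of the Krt18 window and 34 of the Lmna window with the match lie in exons that GENCODE M21 annotates, and those of Lmna are not shown. So do 140 bases of the Krt8 window, which held no match. The TATAA of Krt18 lies among the 36 exon bases of its window, past the GENCODE start of the gene at chr15:102028180. The Vim window and both Lmna windows lie inside the annotated spans of these genes, so the bases before their outermost GENCODE starts were not searched.

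On GRCm38, the assembly also called mm10 that the submitters' processing notes name, the keratin pair lies together: Krt8 at chr15:101996698-102004482 on the minus strand and Krt18 at chr15:102028180-102032027 on the plus strand. Plec is on the same chromosome at chr15:76170974-76232574. Vim lies at chr2:13573927-13582826, Lmna at chr3:88480147-88509956, Krt19 at chr11:100140810-100148665, Lmnb2 at chr10:80901203-80918245 and Lmnb1 at chr18:56707813-56753424, all as GENCODE M21 annotates the whole gene.

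Next, the relatives and partners of these genes were described. Of 41 other keratins, 34 were too low to be tested and 8 of these had 0 counts in all libraries. Of the 7 tested, 1 was higher and 3 were lower in SRF KO, with a median log2 fold change of -0.13. Among all genes tested, 21.2% were higher and 21.3% lower. Krt7, another simple epithelial type II keratin, fell from 3.11 to 0.575 CPM, a log2 fold change of -2.43 (SE 0.21; adjusted p by edgeR 3.78e-06). The type I keratins Krt17 and Krt42 fell by 1.26 and 1.22 on the log2 scale, from 9.86 to 4.13 CPM and from 20.7 to 8.92 CPM. Krt13, a type I keratin of internal stratified epithelia, rose from 0.211 to 1.12 CPM (2.39 on the log2 scale). Its fold change rests on few reads, with 8, 7 and 4 counts in the WT libraries against 22, 35 and 35 in SRF KO. Keratins are a family of similar genes, and Krt17 and Krt42 in particular can share reads, so these values depend on how such reads were counted.

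Of 12 other cytoplasmic and lens filament genes tested, 4 were higher and 1 was lower, with a median of 0.12. The 5 of 12 called are near the 42.4% called among all genes tested. Nefh, the heavy neurofilament chain, rose from 31.1 to 44.7 CPM and Nes, a filament of neural progenitors, from 29.2 to 39.6 CPM, log2 fold changes of 0.53 and 0.44. Iffo1, which encodes a filament protein of the nucleus, rose by 0.41, and the neuronal filament gene Ina fell by 0.28. The call of Iffo1 ended without SRF KO replicate 3 (adjusted p by edgeR 0.0601). Des, the muscle filament closest in type to Vim, had 15.3 CPM in SRF KO against 16.6 CPM in WT and did not pass the threshold (adjusted p by edgeR 0.211). Gfap was below 1 CPM in both.

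Plectin belongs to the plakins, which join filaments to junctions together with desmosome proteins. Of 15 such genes tested, 2 were higher and 6 were lower, and the median was -0.13. The 8 of 15 called compare with 42.4% of all genes tested. Dst, a giant plakin, fell from 543 to 366 CPM (log2 fold change -0.57, adjusted p by edgeR 4.35e-06). The plakin gene Ppl fell by 0.52 and the desmosomal plaque gene Pkp2 by 0.44 on the log2 scale. Perp, a membrane protein of desmosomes, rose from 23.9 to 45.0 CPM (0.91). Dsc2, a desmosomal cadherin, had a log2 fold change of 0.46 (adjusted p by edgeR 0.0196), a call lost under DESeq2 (adjusted p 0.0554) and without SRF KO replicate 1, SRF KO replicate 2, WT replicate 1 or WT replicate 3 (0.0751, 0.0703, 0.0786 and 0.0522). Dsp, the plakin that anchors keratins at desmosomes, was at 30.2 and 32.5 CPM and did not pass the threshold.

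Of 24 lamin processing and nuclear envelope genes tested, 5 were higher, 6 were lower and 13 were not called, with a median of -0.03. The 11 of 24 called are near the 42.4% called among all genes tested. Zmpste24, the protease that matures prelamin A, rose from 39.4 to 58.9 CPM (log2 fold change 0.58, adjusted p by edgeR 6.46e-06). Tor1aip1 and Tmem43, inner nuclear membrane proteins, rose by 0.58 and 0.39. Narf, whose product binds prelamin A, fell by 0.43, Ankle2 by 0.31 and Sun1, which links lamins to the cytoskeleton, by 0.28 on the log2 scale. The farnesyltransferase genes Fnta and Fntb and the emerin gene Emd had fold changes of 0.01, -0.06 and -0.005 on the log2 scale and were not called. Lbr, the receptor of B-type lamins, fell by 0.18.

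**Figure D4:**
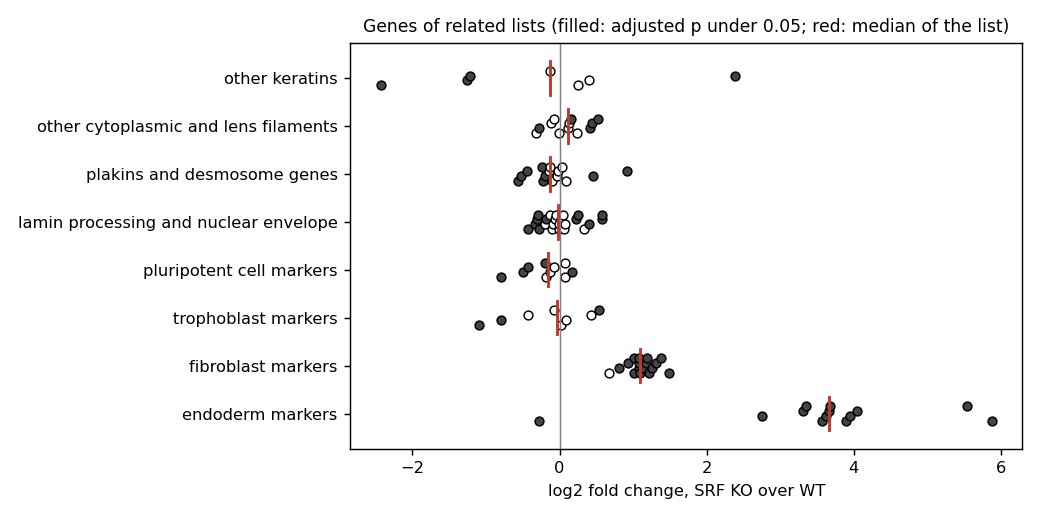
Log2 fold change of each tested gene of the partner lists and marker lists (filled: adjusted p under 0.05), with the median of each list as a red line. Ttr is drawn at its lower bound of 4.04. Endoderm and fibroblast markers lie to the right of 0 except Apoe, while the partner lists lie on both sides.

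Because these genes differ between cell types, markers of other cell types were measured in the same libraries. In bulk RNA, more cells of a type and more RNA per cell cannot be told apart. Among all genes tested, 21.2% were higher and 21.3% lower. Of 17 fibroblast markers, 16 passed as higher, their median was 1.09 and they had a summed level of 1553 to 1888 CPM in SRF KO against 751 to 874 CPM in WT. Prrx1, Fbn1 and Col5a2 rose by 1.13, 1.38 and 1.22. None of the 17 was at 0 in WT. Vim, Lmna and Plec, which fibroblasts also express, rose by less than this median. Their rises lay within the range of the list, 0.675 to 1.49, and the part of fibroblast-like cells in them was not tested.

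Of 13 endoderm markers tested, 12 were higher and 1, Apoe, was lower (-0.28), with a median of 3.66. Cubn, Dab2 and Lama1 rose by 5.88, 3.68 and 2.76. Ttr was at 0 in every WT library and at least 16.5-fold higher in SRF KO, against a floor of 3 counts per library. The list median with Ttr at that bound was again 3.66. Summed, the endoderm list was at 2064 to 2203 CPM in SRF KO against 688 to 747 CPM in WT. Krt8, Krt18 and Krt19, which endoderm expresses, were not higher beside it at the threshold, and the part of endoderm-like cells in any of the 8 genes was not tested.

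Of 8 trophoblast markers tested, 1 was higher and 2 were lower, with a median of -0.03. The 3 of 8 called are near the 42.4% called among all genes tested. Tfap2c and Ascl2 fell by 1.10 and 0.80, and Plet1 rose by 0.54. The list summed to 74.3 to 76.2 CPM in SRF KO against 102 to 111 CPM in WT. Tpbpa was at 0 in all libraries, and Elf5 and Prl3d1 were too low to be tested. The trophoblast markers did not move together, and their part in the values of Krt18 and Krt7 was not tested.

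Finally, the genes with the most similar profile were listed for each of the 8, as the root mean square difference of log2 CPM over the 6 libraries after centring each gene on its own mean. Among 12336 candidates with a mean of at least 50 counts, Vim was nearest to Anxa2 (0.02) and Egfr (0.03), which had log2 fold changes of 0.83 and 0.80. Lmna was nearest to Dusp4 (0.02) and to the entry Mir8114 (0.05), which overlaps Glul on the same strand in GENCODE, with log2 fold changes of 0.96 and 0.93. For Plec the nearest were Il2rg (0.02) and Atxn1 (0.03), at 0.76 and 0.70. Krt18 was nearest to Tc2n and Bckdhb (both 0.03), and Krt8 to Slc38a10 and Cops7b (both 0.02). Krt19 lay nearest to 2210015D19Rik (0.02) and Xkr8 (0.04), Lmnb1 to Rdh11 (0.01) and Phf8 (0.02), and Lmnb2 to Rnf187 (0.01) and Bcl7c (0.02). With 6 libraries in 2 groups, many genes share such profiles, and the likeness is a description only.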

How the data were processed

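The deposited table holds whole-number counts per gene and per transposable element subfamily in 6 libraries, not normalized, judged from its values. Per the labels' protocols, the authors dropped adaptor sequence, reads of low quality and empty reads. Per the submitters' processing notes, the build was mm10 and DESeq2 was used, with no role given. The aligner, counting program, annotation and strand setting are not given in the sources used here.

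Genes and subfamilies were fitted in 1 model in R 4.3.3 with edgeR 4.0.16 (filterByExpr, minimum count 10, TMM scaling, quasi-likelihood test, Benjamini-Hochberg adjustment, threshold 0.05). Every adjusted p comes from it unless DESeq2 1.42.0, another setting or a left-out library is named. Those of the ratios come from the permutation test. The filter passed all 8 genes. SEs are the fold change over the root of F. Lengths, positions and overlaps came from GENCODE M21 (GRCm38) and start windows from RefSeq.

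The 8 genes and the lists were chosen with earlier results of these data known. Named from each list were up to 3 genes higher and 3 lower with the smallest p, and the 2 nearest profiles of each gene; Des, Gfap, Dsp, Fnta, Fntb, Emd and Lbr, and those named as untested or at 0, were chosen after their values were seen. The edgeR step was also run on simulated data with the same spread set for all entries, which is simpler than these data. That run does not test the calls made here. Alternatives were other scalings, DESeq2, no filter, gene entries alone, a replicate block and each library left out. A gene with 100 counts has a counting error near 10%, counting error only.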

Additional observations from a re-analysis of the deposited data

How the results depend on the processing

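Vim, Lmna, Plec and Krt18 kept their direction and their call under all 12 alternatives run for each. With a minimum absolute log2 change of 1, the genes called among the 8 were 0 in all, 0 higher and 0 lower. The number lower was 1 at an adjusted p of 0.01 and 1 with total counts, and between 1 and 3 with each library left out (1 without SRF KO replicate 1, SRF KO replicate 3, WT replicate 1 or WT replicate 3). Over all genes, those lower fell to 2013 at an adjusted p of 0.01; stricter thresholds lower counts by construction. Lmnb1 was -0.11 with total counts and not called, and between -0.17 and -0.12 with libraries left out. Lmnb2 was between -0.26 and -0.11 in those fits. Krt19 was between -0.21 and 0.010, turning sign without WT replicate 3. For the other losses the cause was not tested. The 2 ratios kept their direction and moved by less than 1 SD under all alternatives. The deviations of libraries with the same number correlated at 0.053, 0.356 and 0.21, and 4 of 6 libraries correlated best with their own number. Whether equal numbers mark pairs or a shared batch was not tested. With a replicate block 7512 genes were called against 6273, and Lmnb2 (-0.17) passed. Krt19 had 208 to 309 counts a library, and whether depth limits it or the low keratins was not tested.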

Other observations

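The spread between replicate libraries differed among the 8 genes. The coefficient of variation of CPM was higher in WT for 5 of 8 genes and higher in SRF KO for 3. It ranged from 3.44% to 6.73% in SRF KO and from 1.62% to 17.0% in WT (n = 3 libraries each). Krt19, Lmna, Plec and Lmnb2 had 17.0%, 13.1%, 12.7% and 11.9% in WT and 3.47%, 5.62%, 4.52% and 3.44% in SRF KO. For Lmna, Plec and Lmnb2 the lowest WT library was replicate 2, and for Krt19 the highest was replicate 3. Lmnb1 had 4.01% in SRF KO and 1.62% in WT. These values describe libraries, not single cells, and the difference in spread was not tested.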
